A study of Mus musculus with 20 samples.

Results

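The genes described here encode the enzymes and transporters of glycolysis, the enzymes of glycogen metabolism, the kinases that switch off pyruvate dehydrogenase, and transcripts that rise when oxygen is short. They were chosen by symbol from a list of 32 genes. Of these, 30 had a named probe and are described; Gpi1 and Eno1 had none. The table holds 19505 genes with a symbol in all. Total RNA was measured on 20 expression arrays, 5 for each of 4 groups. These were wild-type and Olfm2 knockout mice, in each case with adipocytes from the depot labelled sc and the depot labelled g. Per the labels, all samples were adipocytes obtained from fat tissue and differentiated in culture. Markers of other cell types were also found on the arrays, as described below. The strain, age, sex and diet of the mice and the way Olfm2 was removed are not given in the labels used here. The labels also do not say whether samples came from separate cultures, so the p-values cover only the spread seen among them, which may be technical. Olfm2 encodes a secreted glycoprotein, and its loss in fat cells in obesity is the subject of the series.

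Glycolysis turns glucose into pyruvate and yields ATP without oxygen. Glucose enters through transporters of the GLUT family, is trapped by hexokinases, and is committed to glycolysis by phosphofructokinase. Pyruvate is either reduced to lactate and exported or enters mitochondria, where pyruvate dehydrogenase kinases restrain its oxidation. In fat cells glucose also supplies the glycerol backbone of triglycerides, and a small pool of glycogen is made by glycogen synthase and broken down by glycogen phosphorylase. When oxygen falls, the transcription factor HIF-1 raises many glycolytic genes together with others such as Vegfa, and expanding fat in obesity is known to become poorly oxygenated.

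Some arrays stood apart, and the values of several members moved with them. Markers of mature fat cells such as adiponectin and perilipin were well above the negative control probes on all 20 arrays. The list of 14 skeletal muscle markers averaged 10.89 on sc286WT, 8.86 on sc307WT, 7.59 on sc317KO and 7.03 on sc320KO, and between 4.97 and 5.67 on the other 16 arrays. Lymphocyte markers were highest on sc286WT, sc317KO and sc320KO (8.30, 8.72 and 8.44). Hepatocyte markers averaged above 7 on 8 arrays, of which 2 belonged to knockout sc, 4 to knockout g and 2 to wild-type g. The mean of 13 macrophage markers ranged from 9.65 to 10.22 on wild-type g arrays, against 8.52 to 9.37 on those of knockouts, so the genotypes did not overlap. In sc it ranged from 8.31 to 8.64 in wild-type and from 7.91 to 8.43 in knockout arrays. The mean of 10 endothelial markers lay between 7.75 and 8.97 on the 20 arrays, and negative control medians between 4.45 and 4.84. The arrays thus carried markers of cells that the labels' description of cultured adipocytes does not name. Their source was not tested. Mature fat cell markers averaged 11.05 ± 0.16 on wild-type g arrays, below 11.49 ± 0.08 in knockouts (log2, SD, n = 5). Brown fat cell markers averaged 6.71 ± 0.19 in wild-type and 6.33 ± 0.14 in knockout sc arrays. Olfm2 was 4.88 in wild-type and 3.22 in knockout sc arrays, and 4.34 and 3.54 in g arrays (group means, log2), with no overlap between genotypes. The probe is dim, since Olfm2 was above the array's own negative control median on 3 wild-type sc arrays and on 0 of the 5 arrays in each other group, so its g values lie at background. In bulk RNA, fewer cells of a type and less RNA per cell cannot be told apart.

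**Figure D1:**
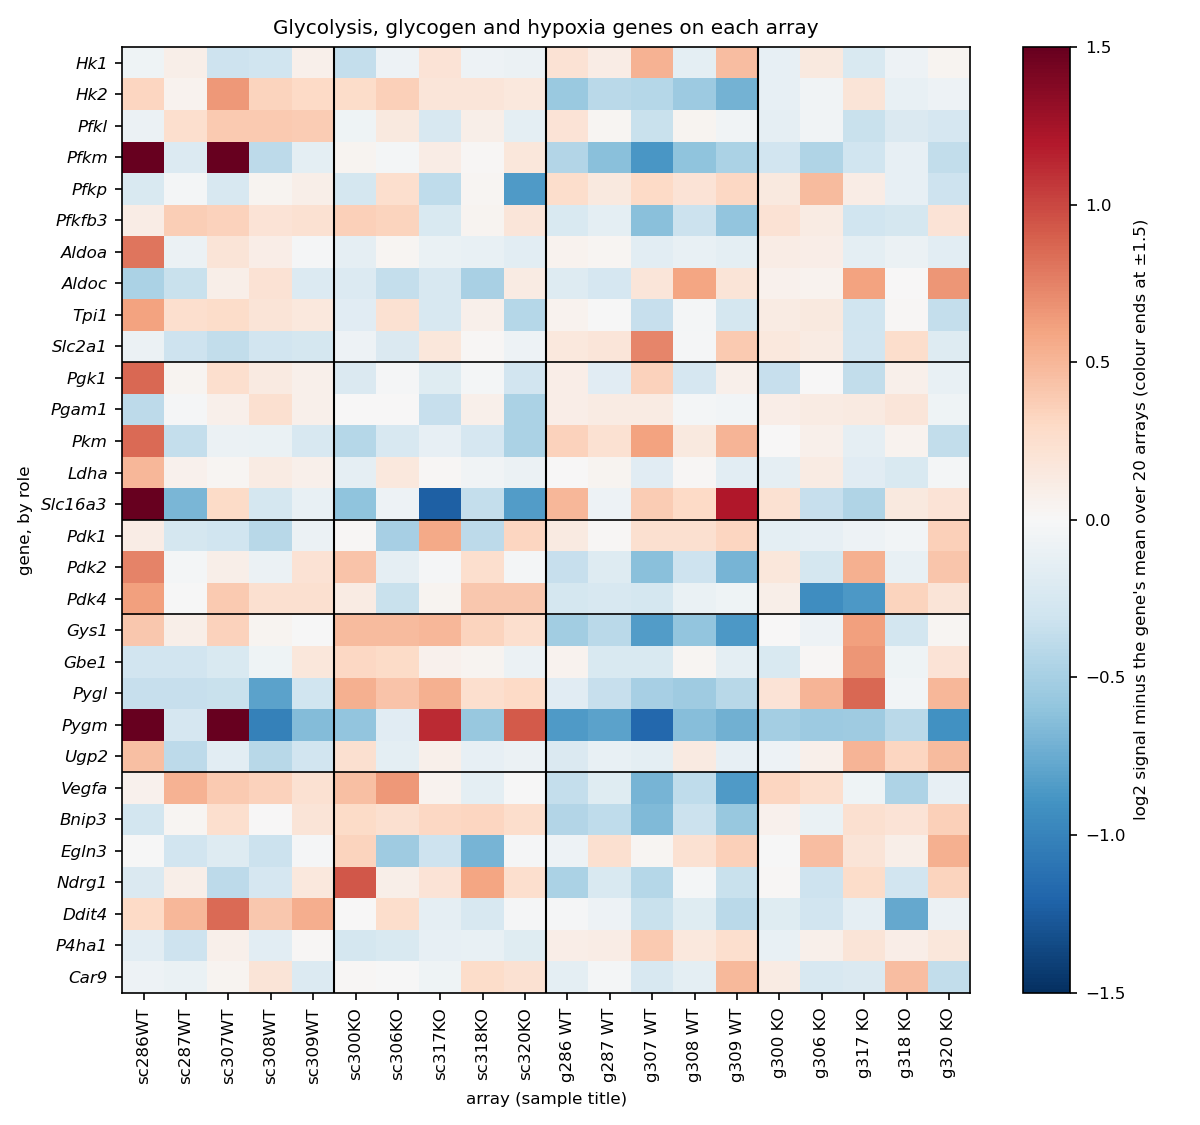
Each row is 1 of the 30 genes, grouped by role, and each column is 1 array. Colour is the log2 signal minus that gene's mean over 20 arrays, and colours end at ±1.5. Hk2, Gys1 and Bnip3 are lowest in wild-type g, Pygl is high in both knockout groups, and Pygm and Pfkm are high on sc286WT and sc307WT.

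The first question was which of these genes differ between knockout and wild-type adipocytes in each depot. A gene was called where limma's adjusted p over all genes was under 0.05. In g, 5 of the 30 genes rose and 0 fell, against 11.3% of all genes called in either direction and 5.01% called higher. The 5 were Pygl, Gys1, Hk2, Bnip3 and Pdk2. In sc, 1 gene rose, Pygl, and 0 fell, against 0.677% of all genes and 0.297% called higher. Genotypes did not overlap in g for 4 members higher and 1 lower in knockouts, beside 4.68% and 5.73% of all genes. In sc this held for 1 higher and 2 lower, beside 1.41% and 1.53%. The median difference over the 30 genes was 0.04 in g and -0.10 in sc (log2), beside 0.02 and 0.01 over all genes. The calls were spread over glycogen enzymes, a hexokinase, a pyruvate dehydrogenase kinase and a mitophagy gene.

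**Figure D2:**
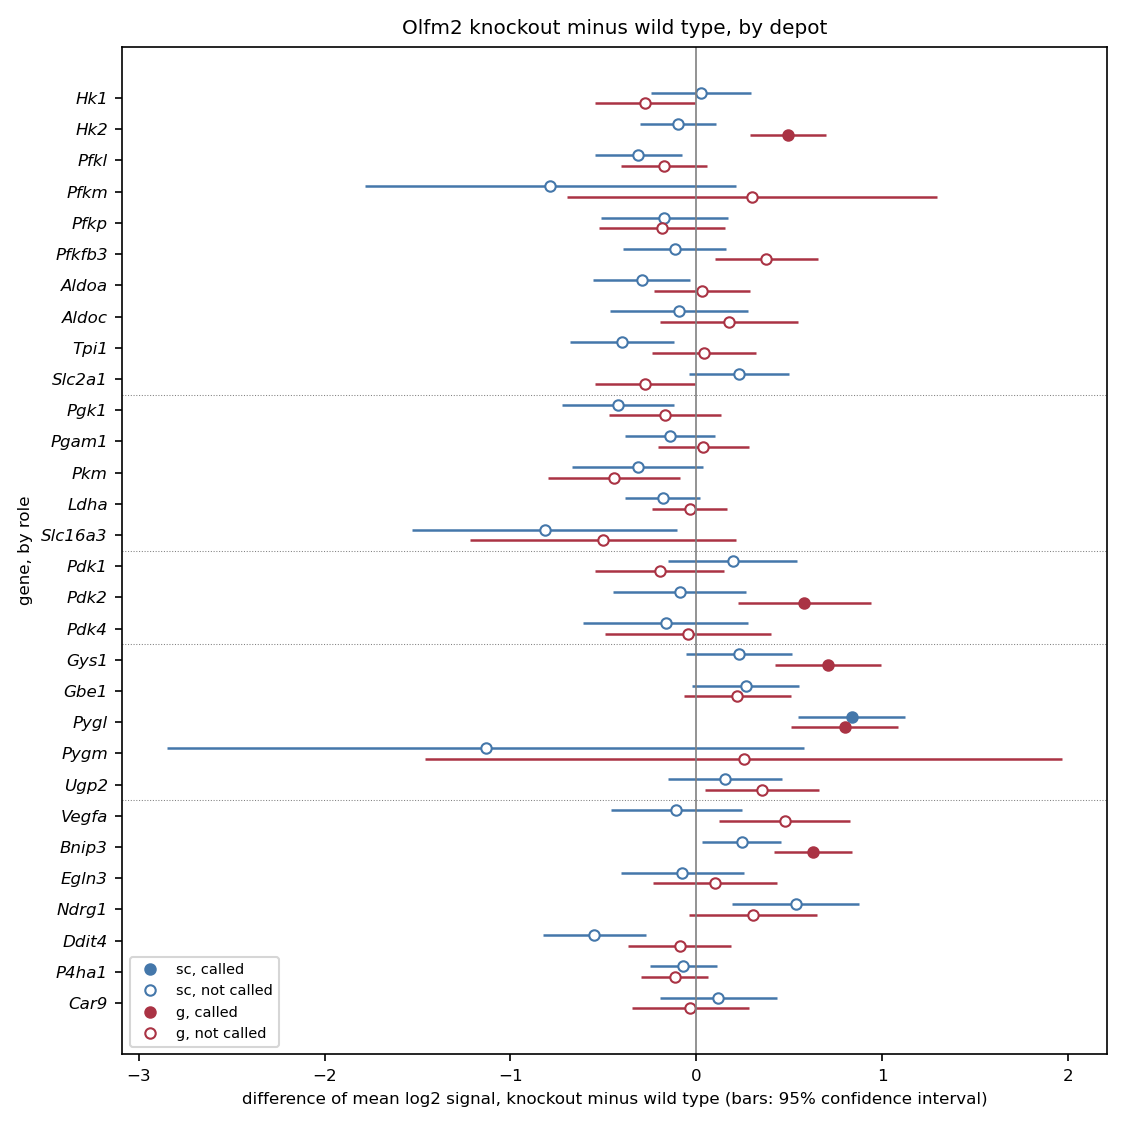
Points give the difference of mean log2 signal, knockout minus wild type, for each of the 30 genes in sc and in g, with 95% confidence intervals, and filled points passed limma's test. Pygl lies near 0.8 in both depots, while Gys1, Hk2, Bnip3 and Pdk2 are filled in g alone; the difference between depots was not called for any of them.

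Glycogen genes held the largest rises. Pygl, the glycogen phosphorylase first described in liver, releases glucose 1-phosphate from glycogen. In sc it was 8.27, 8.28, 8.28, 7.81 and 8.32 on the wild-type arrays (sc286WT, sc287WT, sc307WT, sc308WT and sc309WT) and 9.16, 9.04, 9.15, 8.87 and 8.92 on the knockout arrays (sc300KO, sc306KO, sc317KO, sc318KO and sc320KO). Every knockout sc array lay above every wild-type one. Values of other genes follow the same order of arrays. The difference was 0.84 (1.78-fold, SE 0.14, limma adjusted p = 0.00468). In g the wild-type values were 8.45, 8.28, 8.12, 8.09 and 8.20 and the knockout values 8.82, 9.13, 9.48, 8.58 and 9.11, again without overlap. The difference in g was 0.80 (1.74-fold, SE 0.14, adjusted p = 0.000847). Hepatocyte markers were also higher in the knockout groups. Pygl was at 9.04, 9.15 and 8.92 on the 3 knockout sc arrays with hepatocyte means under 7, and the sc difference without the hepatocyte-high arrays was 0.84 (adjusted p = 0.0147). In g, where 1 knockout array was left, the difference without them was 0.62. The sc call was lost without the 4 muscle-high arrays (0.89, adjusted p = 0.0817), when macrophage means entered the fit (0.70, adjusted p = 0.0612) and with hepatocyte, muscle and lymphocyte means as covariates (0.77, adjusted p = 0.102).

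Gys1, the glycogen synthase of muscle and fat, adds glucose units to glycogen. On the wild-type g arrays it was 8.53, 8.64, 8.22, 8.45 and 8.19, and on the knockout g arrays 9.06, 8.98, 9.67, 8.78 and 9.08. The groups did not overlap, and the difference was 0.71 (1.63-fold, SE 0.14, adjusted p = 0.00207). In sc it was 9.46, 9.13, 9.40, 9.09 and 9.05 in wild-type and 9.52, 9.52, 9.55, 9.38 and 9.30 in knockout arrays. The sc groups overlapped and the difference of 0.23 was not called (95% interval -0.06 to 0.51, adjusted p = 0.607). Gbe1, the branching enzyme, differed by 0.27 in sc and 0.22 in g, and Ugp2, which makes UDP-glucose, by 0.15 and 0.35; none of these was called. Of the other 24 measured glycogen genes 4 rose in g and 0 fell, beside 5.01% and 6.27% of all genes. The largest was Pygb, the brain glycogen phosphorylase (1.04, SE 0.14, adjusted p = 0.000148), followed by Ppp1r3c, a subunit that targets protein phosphatase 1 to glycogen (0.80, adjusted p = 0.041). Pgm1, which interconverts glucose 1-phosphate and glucose 6-phosphate, rose by 0.55 and the targeting subunit Ppp1r3e by 0.42. The Ppp1r3c call was lost without g286 WT, g287 WT, g306 KO, g307 WT, g309 WT, g317 KO or g320 KO, where each was left out alone. That of Ppp1r3e was lost without g286 WT, g307 WT or g317 KO. In sc 0 of these 24 genes were called by limma, beside 0.677% of all genes, and 6 had an unadjusted p under 0.05 (10.3% of all genes).

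Among genes of glucose entry and the upper steps, Hk2 was the only called member in g. Hk2, the insulin-regulated hexokinase of muscle and fat, phosphorylates glucose on entry. It was 7.28, 7.44, 7.41, 7.30 and 7.14 on the wild-type g arrays and 7.72, 7.79, 8.04, 7.73 and 7.77 on the knockout g arrays. There was no overlap, and the difference was 0.50 (1.41-fold, SE 0.10, adjusted p = 0.00239). In sc the values were 8.17, 7.90, 8.50, 8.18 and 8.14 in wild-type and 8.12, 8.20, 8.03, 8.03 and 8.0 in knockout arrays. These overlapped, with a difference of -0.10 (95% interval -0.30 to 0.10). Hk1, the widely expressed hexokinase, differed by -0.28 in g and 0.02 in sc, and Slc2a1, the basal glucose transporter GLUT1, by -0.27 and 0.23. The phosphofructokinase genes Pfkl and Pfkp were at -0.17 and -0.19 in g and -0.31 and -0.17 in sc. Pfkfb3, whose product makes the phosphofructokinase activator fructose 2,6-bisphosphate, was at 0.38 in g (adjusted p = 0.0721) and -0.12 in sc. It was called in g without g287 WT, g317 KO or g318 KO left out singly, and was not called in 18 of 23 alternatives. The aldolase genes Aldoa and Aldoc were at 0.03 and 0.18 in g, and Tpi1, triose phosphate isomerase, at 0.04.

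Of the other 20 measured glycolysis and transport genes 2 rose and 2 fell in g, beside 5.01% and 6.27% of all genes. Slc2a4, the insulin-responsive transporter GLUT4 of muscle and fat, had the largest rise (1.23, SE 0.14, adjusted p = 3.97e-05) and is also in the mature fat cell list. Ldhb, the lactate dehydrogenase subunit of oxidative tissues, rose by 0.68 (adjusted p = 0.000983). Hk3, a hexokinase of myeloid cells, fell by 0.84 (SE 0.17, adjusted p = 0.00241). Eno2, the neuronal enolase, fell by 0.40 (adjusted p = 0.0248), a call lost without g286 WT, g307 WT or g320 KO. In sc 1 gene fell, beside 0.379% of all genes. This was Slc16a1, the monocarboxylate transporter MCT1, by 0.69 (adjusted p = 0.04). That call was lost when any of sc287WT, sc300KO, sc307WT, sc308WT, sc309WT, sc317KO and sc320KO was left out.

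None of the 5 measured members of the lower steps and lactate export was called in either depot by limma. An unadjusted p under 0.05 was seen for 1 in g and 2 in sc, beside 24.1% and 10.3% of all genes. In sc all 5 lay below 0 and in g 4 did. The sc differences moved when muscle-high arrays were left out. Without these 4 arrays Slc16a3 was at 0.01 and Pgk1 at -0.17. Without sc286WT alone Slc16a3 was at -0.42, Pgk1 at -0.27 and Pkm at -0.11. The signals were not high on all 4 arrays. On sc286WT, sc307WT, sc317KO and sc320KO Slc16a3 was 7.88, 6.41, 4.89 and 5.28, the last 2 being its lowest sc values. Pgk1 was 10.04, 9.44, 9.0 and 8.89 there. Pkm, the pyruvate kinase of most tissues, was 10.74, 10.62, 10.99, 10.54 and 10.90 in wild-type g and 10.39, 10.47, 10.25, 10.44 and 10.02 in knockout g arrays. Every knockout array lay below every wild-type one, and the difference of -0.44 had an adjusted p of 0.104. Such separation was seen in g for 5 of the 30 members and 10.4% of all genes. Without the muscle-high or the lymphocyte-high sc arrays, which enter the shared estimate of the spread, the same difference had an adjusted p of 0.0107 and 0.0085. In 19 of 23 alternatives Pkm was not called in g. Pgk1, phosphoglycerate kinase, was 10.04, 9.22, 9.44, 9.32 and 9.26 in wild-type sc and 8.97, 9.16, 9.0, 9.16 and 8.89 in knockout sc arrays. These groups did not overlap either, as for 3 members in sc and 2.94% of all genes, and the difference of -0.42 was not called (adjusted p = 0.236). Ldha, which reduces pyruvate to lactate, was at -0.18 in sc and -0.04 in g, and Pgam1, phosphoglycerate mutase, at -0.14 and 0.04. Slc16a3, the lactate exporter MCT4, was at -0.82 in sc (SE 0.34) and -0.50 in g.

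Pdk2 was the 1 called gene of the 3 pyruvate dehydrogenase kinases. On the wild-type g arrays it was 8.79, 8.94, 8.50, 8.82 and 8.43, and on the knockout g arrays 9.30, 8.87, 9.66, 9.01 and 9.55. The lowest knockout array, g306 KO, lay below the highest wild-type one. The difference was 0.58 (1.5-fold, SE 0.17, adjusted p = 0.0313) and lost its call without g300 KO, g307 WT, g309 WT, g317 KO or g320 KO left out singly (adjusted p from 0.0531 to 0.0989). In sc Pdk2 differed by -0.09. Pdk1, a HIF-1 target, was at -0.20 in g and 0.20 in sc, and Pdk4, induced by fasting and glucocorticoids, at -0.05 and -0.16. Of 10 other measured pyruvate genes 3 rose in g and 0 fell, beside 5.01% and 6.27% of all genes. They included Pcx, pyruvate carboxylase (0.62, adjusted p = 0.00779), and Pdp2, a phosphatase that opposes the kinases (0.56, adjusted p = 0.00215). The last was Mpc1, a subunit of the mitochondrial pyruvate carrier (0.32, adjusted p = 0.0131). In sc limma called 0 of these 10 genes, beside 0.677% of all genes, and 3 had an unadjusted p under 0.05 (10.3% of all genes).

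Of the 7 measured hypoxia markers 1 rose in g and 0 fell, beside 5.01% and 6.27% of all genes. In sc limma called 0, beside 0.677% of all genes, and 3 had an unadjusted p under 0.05 (10.3% of all genes). Bnip3, a HIF-1 target that marks mitochondria for removal, was 9.61, 9.67, 9.39, 9.73 and 9.48 in wild-type g and 10.11, 9.95, 10.29, 10.26 and 10.41 in knockout g arrays. The groups did not overlap, and the difference was 0.63 (1.55-fold, SE 0.10, adjusted p = 0.000566). In sc it was 9.77, 10.09, 10.30, 10.05 and 10.24 in wild-type and 10.34, 10.29, 10.36, 10.37 and 10.32 in knockout arrays. The lowest knockout value fell just under the highest wild-type one, and the difference of 0.24 was not called (adjusted p = 0.374). Ddit4, an inhibitor of mTORC1 induced by hypoxia and glucocorticoids, was 8.28, 8.48, 8.83, 8.39 and 8.52 in wild-type sc and 7.98, 8.24, 7.85, 7.74 and 7.96 in knockout sc arrays. These groups did not overlap, but the difference of -0.55 (SE 0.13) missed the threshold (adjusted p = 0.0622). It passed in 5 of 23 alternatives, among them without sc286WT (adjusted p = 0.0454), without sc306KO (0.0314) and when dim genes were left out (0.0497). In the other 18 it did not pass, among them without the muscle-high arrays (-0.48, adjusted p = 0.45). In g Ddit4 differed by -0.09.

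Vegfa, the angiogenic growth factor, was at 0.48 in g (adjusted p = 0.0762) and -0.11 in sc. Its g difference was called without g287 WT or g318 KO and was not called in 21 of 23 alternatives. Ndrg1, a stress-responsive gene, was at 0.53 in sc (adjusted p = 0.17) and 0.31 in g. The prolyl hydroxylase genes Egln3, which acts on HIF, and P4ha1, which acts on collagen, lay between -0.12 and 0.10 in both depots. Car9, the carbonic anhydrase widely used as a hypoxia marker, was at 0.12 and -0.03. Of the 13 genes that regulate HIF, 0 rose and 1 fell in sc, beside 0.297% and 0.379% of all genes. In g 1 rose and 1 fell, beside 5.01% and 6.27%. Hif1a itself fell in both depots. It encodes the oxygen-regulated subunit of HIF-1, though that regulation acts mainly on the protein. In sc it was 10.10, 10.42, 10.21, 10.39 and 10.42 in wild-type and 9.67, 10.08, 9.77, 9.87 and 9.68 in knockout arrays, a difference of -0.49 (adjusted p = 0.0374). The groups did not overlap, and the call was lost when any of sc287WT, sc300KO, sc307WT, sc308WT, sc309WT, sc317KO and sc320KO was left out. In g the difference was -0.42 (adjusted p = 0.016), also without overlap, and was not called without g317 KO. Hif3a, a family member, rose in g by 0.46 (adjusted p = 0.00784).

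Of the other 33 measured hypoxia targets 3 rose and 3 fell in g, beside 5.01% and 6.27% of all genes. The median over the 33 was -0.01. Stc2, a secreted stanniocalcin, rose by 1.21 (adjusted p = 0.000142) and the selenium-binding protein gene Selenbp1 by 0.87. Insig2, a brake on cholesterol synthesis, rose by 0.36, a call lost without any of g287 WT, g300 KO, g306 KO, g307 WT, g309 WT, g317 KO, g318 KO and g320 KO. Wsb1, a ubiquitin ligase subunit, fell by 0.78 and the collagen-modifying lysyl hydroxylase Plod2 by 0.70. Lox, which crosslinks collagen, fell by 0.68, a call lost without g286 WT, g287 WT, g306 KO, g308 WT, g309 WT, g317 KO or g320 KO. In sc Stc2 rose by 0.85 (adjusted p = 0.0153), a call lost without sc300KO, and none of these targets fell. Over all genes 0.297% were called higher and 0.379% lower in sc.

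**Figure D3:**
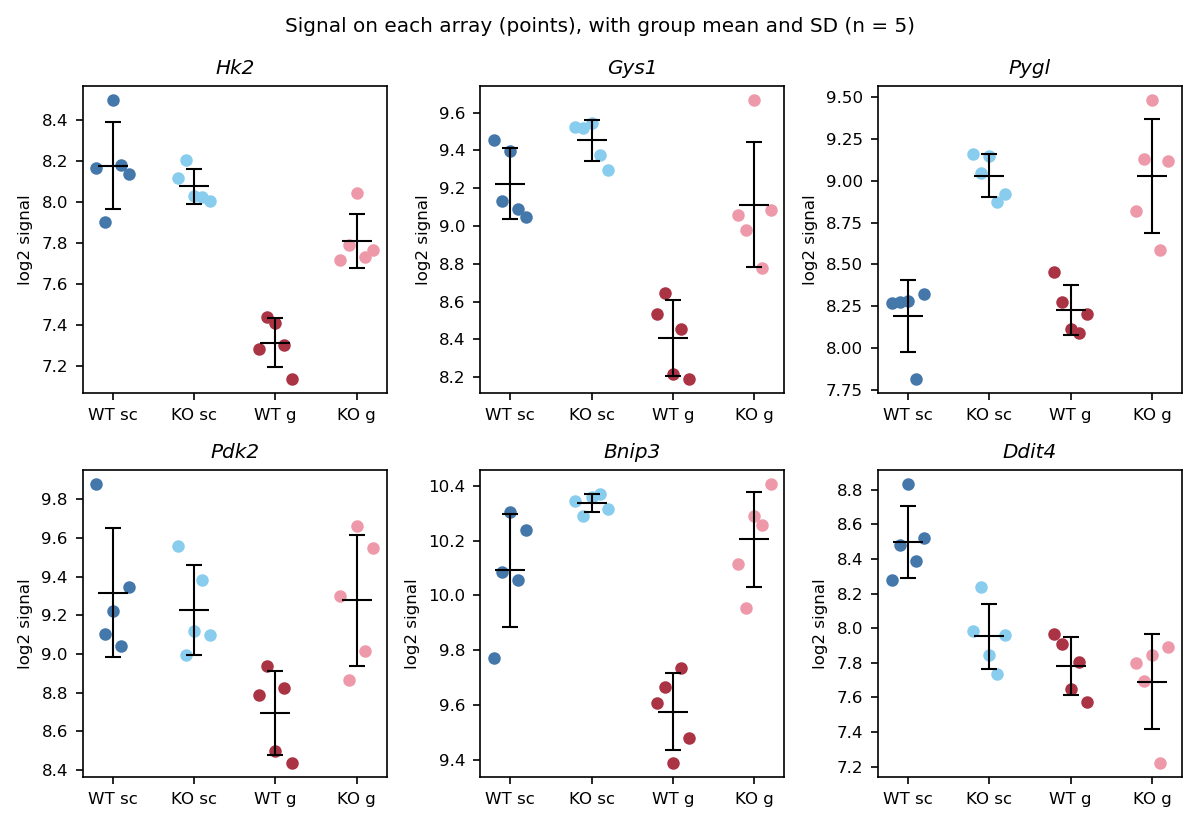
Points are the log2 signals of single arrays in the 4 groups for Hk2, Gys1, Pygl, Pdk2, Bnip3 and Ddit4, and bars are the group mean and SD (n = 5). Wild-type g is the lowest group for Hk2, Gys1, Pdk2 and Bnip3, both knockout groups are high for Pygl, and wild-type sc is the highest for Ddit4.

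Other transcripts moved with the g comparison. On g300 KO, the knockout g array with the lowest hepatocyte mean (5.31), Pygl was 8.82, Gys1 9.06, Hk2 7.72, Bnip3 10.11 and Pdk2 9.30, each above the 5 wild-type g arrays. Leaving out the 8 hepatocyte-high arrays kept 3 wild-type and 1 knockout g array, whose spread was taken from the rest of the arrays. The differences were then 0.62 for Pygl, 0.71 for Gys1, 0.39 for Hk2, 0.60 for Bnip3 and 0.68 for Pdk2. With 1 knockout array left, calls are not given for that fit. With the hepatocyte mean as a covariate Pygl, Gys1, Hk2 and Bnip3 were called and Pdk2 was not (0.45, adjusted p = 0.173). With the macrophage mean as a covariate, which does not overlap between the genotypes in g, 0 members and 0 of the other pathway genes were called. The loss was not particular to these genes, since that fit called 1 of all 19505 genes, beside 2200 in the main fit. The differences were then 0.44 for Pygl, 0.17 for Gys1, 0.37 for Hk2, 0.47 for Bnip3 and -0.17 for Pdk2. The macrophage mean and knockout cannot be told apart in g with these arrays. Cd163 went against the other markers of that list, at 6.94 in wild-type and 7.99 in knockout g. The mature fat cell mean did not overlap between the genotypes in g either. It ranged from 10.88 to 11.24 on wild-type and from 11.38 to 11.58 on knockout g arrays. The mature fat cell mean and knockout thus cannot be told apart in g, and this list was not tested as a covariate. Its markers moved unequally. Between wild-type and knockout g Retn went from 10.59 to 11.96 and Slc2a4 from 6.82 to 8.05. Fabp4 was 12.70 and 12.71, Lpl 12.45 and 12.51, and Cd36 was lower in knockouts (12.03 and 11.91). The other listed markers were higher in knockouts.

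The letters upstream of the genes were compared because Hk2, Gys1, Pygl and Bnip3 were the 4 members called in knockout g with no overlap between genotypes. HIF-1 is known to bind the core ACGTG or GCGTG. Both were searched on both strands in the 250 bases before each gene start in RefSeq's windows of build GRCm38.p6, where 29 of the 30 genes matched. Capitals mark every match, and on the strand printed a reverse match reads CACGT or CACGC. The windows lie at chr6:82774455-82774704 (minus strand), chr7:45434589-45434838 (plus strand), chr12:70227684-70227933 (minus strand) and chr7:138909507-138909756 (minus strand).
Hk2: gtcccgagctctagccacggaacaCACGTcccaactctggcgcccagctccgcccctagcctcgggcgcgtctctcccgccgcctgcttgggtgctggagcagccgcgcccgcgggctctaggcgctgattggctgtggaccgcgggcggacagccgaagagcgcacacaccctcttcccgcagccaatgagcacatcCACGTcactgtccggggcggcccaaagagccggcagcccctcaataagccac
Gys1: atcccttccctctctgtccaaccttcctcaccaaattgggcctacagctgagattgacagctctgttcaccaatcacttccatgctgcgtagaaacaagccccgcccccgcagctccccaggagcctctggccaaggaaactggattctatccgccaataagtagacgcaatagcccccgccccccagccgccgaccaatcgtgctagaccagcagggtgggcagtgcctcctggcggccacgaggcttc
Pygl: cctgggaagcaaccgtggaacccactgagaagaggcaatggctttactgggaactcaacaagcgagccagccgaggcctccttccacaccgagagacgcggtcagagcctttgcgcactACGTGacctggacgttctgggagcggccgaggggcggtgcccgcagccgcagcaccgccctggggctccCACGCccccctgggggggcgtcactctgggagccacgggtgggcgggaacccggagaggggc
Bnip3: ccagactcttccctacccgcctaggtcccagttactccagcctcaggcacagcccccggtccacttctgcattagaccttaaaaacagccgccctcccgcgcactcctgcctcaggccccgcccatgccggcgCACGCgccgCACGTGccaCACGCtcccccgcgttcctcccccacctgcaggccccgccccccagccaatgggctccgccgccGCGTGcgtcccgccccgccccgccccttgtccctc
Bnip3 held 5 matches, of which a forward and a reverse one overlap in CACGTG, and Hk2 and Pygl held 2 each. Gys1 held 0, so these 4 genes did not share the motif in this window. Pdk2, which was also called higher in knockout g but with overlap, held 2 matches in 1 window and 0 in another. Of all 32851 windows 38.6% held at least 1 match and 1.01% held 5 or more. Of the 43 windows of the member genes, several of which belong to 1 gene, 74.4% held at least 1. Many of these genes are known HIF targets and were listed as such. A match is a run of letters and says nothing of binding.

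Whether the knockout effect differs between depots was tested as g minus sc. By limma 0 of 30 members were called, beside 0.0769% of all genes, and 9 had an unadjusted p under 0.05 (13% of all genes). The largest such differences were 0.60 for Hk2 (95% interval 0.31 to 0.88, adjusted p = 0.118), 0.67 for Pdk2 (0.16 to 1.17, adjusted p = 0.259) and 0.58 for Vegfa (0.09 to 1.08, adjusted p = 0.312). Slc2a1 had -0.50 (-0.88 to -0.12, adjusted p = 0.262). For Pygl the difference of effects was -0.04, with an interval of -0.44 to 0.37. A gene called in g and not in sc is therefore not shown to differ between depots.

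The depots themselves were then compared within each genotype. In wild-type adipocytes 2 members were higher and 9 were lower in g than in sc, against 17.8% of all genes called, 9.3% higher and 8.48% lower. The 9 lower genes were Hk2, Pfkfb3, Tpi1, Pfkm, Pdk2, Gys1, Ddit4, Bnip3 and Vegfa, and the 2 higher ones Slc2a1 and P4ha1. The depots did not overlap for 3 members higher and 10 lower in g, beside 8.73% and 7.36% of all genes. The median over the 30 genes was -0.20, beside -0.04 over all genes. In knockouts limma called 0 members, beside 4.13% of all genes, and 6 had an unadjusted p under 0.05 (17.1% of all genes). These comparisons use the wild-type g arrays that also served the knockout comparison in g, so they are not independent of it. Same-numbered sc and g arrays, which may come from the same mouse, were treated as separate samples.

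Hk2 had the lowest adjusted p of the 30 genes. With the array values given above, wild-type g lay wholly below wild-type sc, at a difference of -0.86 (1.82-fold lower in g, SE 0.10, adjusted p = 5.4e-06). Gys1 differed by -0.82 (1.76-fold lower in g, adjusted p = 0.000266), Bnip3 by -0.51 (adjusted p = 0.00119) and Ddit4 by -0.72 (adjusted p = 0.00061), all without overlap. The knockout g means of Hk2 and Gys1 (7.81 and 9.11) lay between the wild-type g means (7.32 and 8.41) and the wild-type sc means (8.18 and 9.22). Pdk2 was -0.62 (adjusted p = 0.0145), and its call was lost without the muscle-high arrays (-0.47, adjusted p = 0.0903).

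Pfkfb3 was 11.03, 11.30, 11.28, 11.13 and 11.16 in wild-type sc and 10.70, 10.78, 10.30, 10.61 and 10.33 in wild-type g arrays. All g arrays were below all sc arrays, and the difference was -0.64 (SE 0.13, adjusted p = 0.00191). Vegfa was 9.26, 9.72, 9.59, 9.54 and 9.42 in wild-type sc and 8.83, 9.02, 8.50, 8.82 and 8.35 in wild-type g arrays, a difference of -0.80 without overlap (adjusted p = 0.00207). In the opposite direction, Slc2a1 was 7.47, 7.25, 7.20, 7.27 and 7.30 in sc and 7.71, 7.74, 8.29, 7.54 and 7.95 in g. Its difference was 0.55 (SE 0.13, adjusted p = 0.00482), with g307 WT the highest array. P4ha1 was 8.12, 7.96, 8.35, 8.12 and 8.29 in sc and 8.38, 8.39, 8.68, 8.43 and 8.53 in g, a difference of 0.31 (adjusted p = 0.0142) that missed the threshold without g307 WT (adjusted p = 0.0505). Tpi1 was -0.41 (adjusted p = 0.0367) and lost its call without sc286WT, sc287WT, sc307WT, g307 WT or g309 WT. In knockouts the same 5 genes differed by -0.14 for Pfkfb3, -0.22 for Vegfa, 0.05 for Slc2a1, 0.27 for P4ha1 and 0.03 for Tpi1. Macrophage means did not overlap between the wild-type depots either, and with them as a covariate 0 of the 11 calls held. That fit called 2 of all 19505 genes, beside 3468 in the main fit, so the loss was not particular to the members. Mature fat cell markers averaged 11.57 ± 0.12 in wild-type sc and 11.05 ± 0.16 in wild-type g, and brown fat cell markers 6.71 ± 0.19 and 6.0 ± 0.22 (log2, SD, n = 5). Neither list overlapped between these depots, and their part in the depot differences was not tested.

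**Figure D4:**
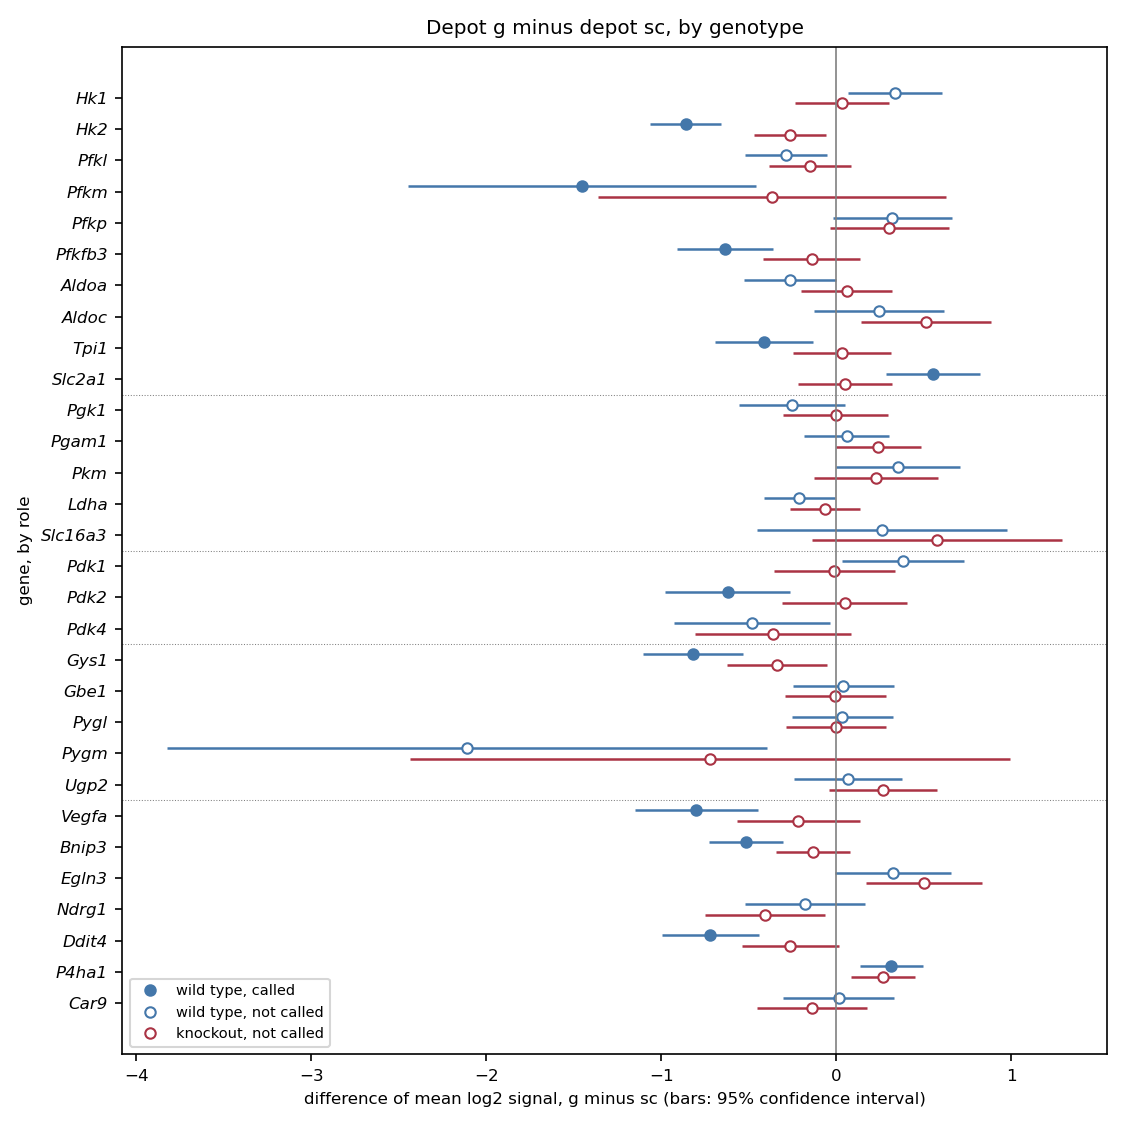
Points give the difference of mean log2 signal, g minus sc, for each of the 30 genes in wild type and in knockout, with 95% confidence intervals, and filled points passed limma's test. Of the wild-type points 11 are filled, 9 of them below 0; none of the knockout points is filled, and the intervals of Pfkm and Pygm are wide.

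Other pathway genes called between wild-type depots were 8 higher and 24 lower of 100, beside 9.3% and 8.48% of all genes. Slc2a4 was lower in g by 0.98 (log2) and Gpd1, which makes glycerol 3-phosphate from a glycolytic intermediate, by 0.59, while Hk3 was higher by 0.89 and Eno2 by 0.46. Of 10 pyruvate genes 6 were lower, among them the pyruvate dehydrogenase subunits Dlat (-0.52, adjusted p = 0.000194) and Dld (-0.46), the carrier subunit Mpc1 (-0.44) and Pcx (-0.68). The kinase gene Pdk3 was higher by 0.92 (adjusted p = 0.000629). Of 24 glycogen genes 5 were lower, led by Ppp1r3c (-0.93) and Pgm1 (-0.84), and 2 were higher, the phosphorylase kinase subunit Phka2 (0.38) and Pgm2 (0.39), the latter not without g286 WT or g307 WT. The call of Ppp1r3c was lost without the muscle-high arrays. Of HIF regulators Epas1, which encodes HIF-2 alpha, was lower by 0.43 and the HIF prolyl hydroxylase Egln1 by 0.37. Of 33 hypoxia targets 6 were lower, among them Hilpda, an inhibitor of lipolysis (-1.02), Lox (-0.84) and Higd1a (-0.67), and 3 were higher, with Wsb1 at 0.93 and Anxa1 at 0.59. In knockouts 2 of the 100 genes were called, beside 4.13% of all genes. These were Pdk3 (0.62, adjusted p = 0.0402) and Dld (-0.33, adjusted p = 0.0196). The call of Dld was lost without sc317KO or g318 KO, and that of Pdk3 without any array but sc318KO and g317 KO.

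The muscle forms of 2 enzymes followed the muscle-high arrays. Pygm, the muscle glycogen phosphorylase, was 12.14, 6.66, 9.98, 5.90 and 6.27 on the wild-type sc arrays, and 6.32, 6.75, 8.03, 6.34 and 7.83 on the knockout sc arrays. The 4 highest values were those of sc286WT, sc307WT, sc317KO and sc320KO, the 4 arrays with the highest muscle means. On the 10 g arrays it lay between 5.74 and 6.51. Pfkm, the muscle phosphofructokinase, was 10.62, 6.96, 8.68, 6.77 and 7.02 in wild-type sc and between 7.13 and 7.33 in knockout sc arrays. In wild-type sc the SD of Pygm was 2.74 and that of Pfkm 1.65, against 0.21 for Pygl (n = 5). Without the 4 muscle-high arrays the knockout difference in sc moved from -1.13 to 0.19 for Pygm and from -0.78 to 0.26 for Pfkm, none of them called, and that of Pfkm in g, at 0.30 with and without them, was then called (adjusted p = 0.0384). The wild-type depot difference of Pfkm moved from -1.45 (adjusted p = 0.0394) to -0.36 (adjusted p = 0.0275), and that of Pygm from -2.11 to -0.20. Of the arrays left out singly, the Pfkm call was lost without sc307WT, g286 WT, g287 WT, g307 WT, g308 WT or g309 WT. The glycogen phosphorylases therefore moved apart, since Pygl was not higher on sc286WT (8.27) or sc307WT (8.28) than on the other wild-type sc arrays, which lay between 7.81 and 8.32.

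Several enzymes shared by muscle and fat were also highest on sc286WT. Aldoa was 12.59 there and 11.71, 11.99, 11.90 and 11.77 on the other wild-type sc arrays. Slc16a3 was 7.88 there, beside 5.43, 6.41, 5.85 and 6.0. Without the muscle-high arrays the knockout difference in sc moved from -0.29 to -0.07 for Aldoa, from -0.82 to 0.01 for Slc16a3, from -0.42 to -0.17 for Pgk1, from -0.32 to -0.07 for Pkm and from -0.40 to -0.16 for Tpi1. Each of these differences was thus closer to 0 without the 4 arrays. The knockout arrays among the 4, sc317KO and sc320KO, were not high, at 4.89 and 5.28 for Slc16a3 and 9.76 and 9.58 for Tpi1. In the wild-type depot comparison, leaving these arrays out brought Pkm to 0.60 (adjusted p = 0.00312), Slc16a3 to 0.82 (adjusted p = 0.0268) and Pdk1 to 0.45 (adjusted p = 0.0315), which were not called with them, and Pfkl to -0.37 (adjusted p = 0.0295).

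**Figure D5:**
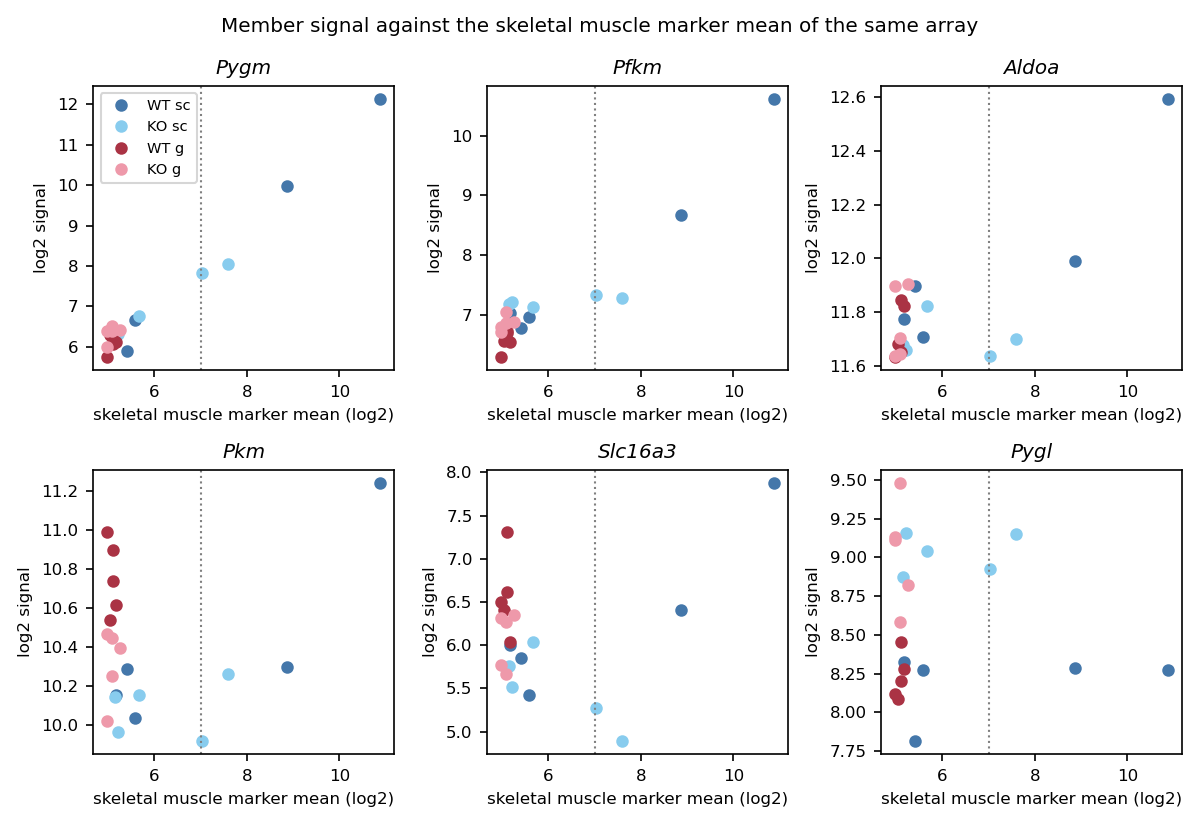
Each point is 1 of the 20 arrays, with the mean of 14 skeletal muscle markers on the horizontal axis and the log2 signal of the gene on the vertical axis; the dotted line marks a marker mean of 7. Pygm and Pfkm are highest on the arrays with the highest muscle means, Aldoa, Pkm and Slc16a3 are highest on sc286WT (Pygm 12.14, Pfkm 10.62, Aldoa 12.59), and Pygl is not.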

How the data were processed

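Total RNA of the 20 samples was hybridised to expression arrays after biotin labelling with the GeneChip WT PLUS kit, per the labels' protocols. The authors deposited log2 signals per probe set made with RMA, and the submitters' processing notes also name limma; their versions and the build are not given in the sources. The series' design text names 10 arrays after another gene, PKP2, whereas each sample's labels give Olfm2, and the labels were used. Of 28846 probes 6640 are controls and 19572 carry 1 symbol; 55 genes had more than 1 probe and are represented by the brightest on average, which left 19505 genes.

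Differences were fitted in R 4.3.3 with limma 3.58.1 as 4 group means over all 20 arrays (16 residual degrees of freedom), with Benjamini-Hochberg adjustment over all genes and two-sided p-values. The 5 comparisons are knockout against wild type in each depot, the difference of these, and g against sc in each genotype. The fit was tested on simulated data. Arrays give no counts, and their number limits the precision. Members, lists and tests were chosen with earlier results of these data known. Every measured member was named, and of each other list at most 4 called genes per direction and comparison, the largest first. Alternatives were quantile normalisation, a filter on dim genes (mean above the negative control median), another moderation, only the groups compared, mean of probes, the title number as a block, each array left out, and marker means as covariates or high arrays left out (means above 7 for hepatocyte and muscle, 7.5 for lymphocyte markers). No set test was made.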

Additional observations from a re-analysis of the deposited data

Results flagged for a closer look

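In 9 of 120 combinations of a member and a group of 5 arrays, 1 array lay far from the others (Dixon's 95% criterion for 5 values, 0.71 of the range); chance flags about 1 in 20. Of the 9, 5 were sc286WT in the wild-type sc group, the array with the highest skeletal muscle mean (10.89). There Tpi1 was 10.60 (others 10.16 to 10.27), Pgk1 10.04 (9.22 to 9.44), Pkm 11.24 (10.04 to 10.30) and Ldha 11.69 (11.22 to 11.32), all high, and Pfkl was low at 8.40 (8.75 to 8.89). In the same group Pygl was low on sc308WT, at 7.81 beside 8.27 to 8.32. In knockout g, Hk2 was high on g317 KO (8.04 beside 7.72 to 7.79). Pdk1 was high on g320 KO (7.88 beside 7.38 to 7.48) and Pygm low on the same array (6.0 beside 6.38 to 6.51). For 0 of the 30 members was the difference of the knockout effect between depots called by limma.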

How the results depend on the processing

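Counts of called members and of other pathway genes are given in that order. Knockout against wild type in sc (1 and 3): 2 members when dim genes were left out and 2 with trend and robust moderation; 0 and 0 with hepatocyte, muscle and lymphocyte means as covariates; 0 and 1 without muscle-high arrays. Other genes were 0 with the groups compared only, 1 with the hepatocyte and 10 with the muscle covariate. They were 0 with the macrophage covariate, and 1 each without hepatocyte-high or lymphocyte-high arrays. Of all genes 132 were called in sc in the main fit, 27 with the 3 covariates and 45 without muscle-high arrays. With the macrophage covariate 41 were called, and 275 with the muscle covariate. In g (5 and 19) counts were 0 and 0 with the macrophage covariate, and 11 other genes with the hepatocyte covariate. Of all genes 2200 were called in g in the main fit, 1 with the macrophage and 1098 with the hepatocyte covariate. Without hepatocyte-high arrays 1 knockout g array was left, so counts are not given. Between wild-type depots (11 and 32) counts were 0 and 0 with the macrophage covariate and 3 and 12 with the 3 covariates. Of all genes 3468 were called there in the main fit, 2 with the macrophage covariate and 1457 with the 3 covariates. Between knockout depots (0 and 2) 1 member was called with the hepatocyte and 1 with the 3 covariates. There 0 other genes were called with the groups compared only or the macrophage covariate. Of all genes 806 were called in the main fit, 311 with the groups compared only and 159 with the macrophage covariate. Leaving out each array in turn gave 1 to 2 and 0 to 6 in sc, 4 to 7 and 14 to 22 in g, 8 to 12 and 21 to 33 between wild-type depots (21 without g307 WT), 0 to 1 and 1 to 3 between knockout depots, and 0 and 0 to 1 for the difference of effects. With the macrophage covariate, called differences changed sign: Pdk2 in g (-0.17) and, between wild-type depots, Pdk2 (0.50), Slc2a1 (-0.28), Hk3 (-0.37), Pdha1 (0.0891), Pdhb (0.0658), Pgm2 (-0.0800), Flt1 (0.13), Selenbp1 (0.26), Anxa1 (-0.20) and Cxcr4 (-0.20), none called; the cause was not tested. Each of the 10 title numbers stood on 1 sc and 1 g array of the same genotype. The labels do not say whether a number marks 1 mouse, so the main fit took no pairs. Same-numbered arrays correlated between -0.461 and 0.142 in their residuals, 2 of 10 above 0.1, which cannot decide whether they share a mouse. With the number as a replicate block (correlation 0.0863) counts were 1 and 3, 5 and 19, 0 and 0, 11 and 34, and 0 and 2.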

Other observations

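Of other glycolysis and glycogen genes, the skeletal muscle forms Pgam2, Eno3 and Ppp1r3a were highest on sc286WT and sc307WT. Eno3 and Ppp1r3a were chosen after their values were seen, so they add no independent support. Fbp2, another muscle form, was 7.69 and 6.28 on sc286WT and sc307WT. It was 5.14 on sc317KO and 5.15 on sc320KO, below 5.66 on sc300KO. Pgam2, the muscle phosphoglycerate mutase, was 9.47 on sc286WT and 7.47 on sc307WT and between 4.97 and 6.33 on the other 18 arrays. Eno3, the muscle enolase, was 11.41 and 8.93 on these arrays and 7.5 on both sc317KO and sc320KO, and at most 6.41 elsewhere. Ppp1r3a, the muscle subunit that targets protein phosphatase 1 to glycogen, was 10.05, 7.43, 5.37 and 4.99 on the same 4 arrays and at most 4.14 elsewhere. The wild-type depot difference of Pgam2 (-1.5, adjusted p = 0.0398) lost its call without the muscle-high arrays (-0.40, adjusted p = 0.0591), and without sc307WT or any of the 5 wild-type g arrays left out singly.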
